A study of Mus musculus with 2 samples.

Results

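The Myc family genes described here are Myc, Mycn and Mycl, which encode the c-Myc, N-Myc and L-Myc transcription factors, with their shared partner Max and the Max-binding repressor Mxd3. They were chosen by gene symbol and not by a measured value, though with earlier results of these data known. They are 5 of the 27998 genes listed in both count matrices. All 5 had unique molecular identifiers (UMIs, 1 per captured transcript) in the kept cells of both libraries.

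Myc proteins bind DNA only as heterodimers with Max, at E-box sequences, and raise transcription of genes for ribosome production, metabolism and cell growth. Max also pairs with the Mxd proteins, Mnt and Mga, and these pairs repress at the same sites, so the balance of partners sets the output. In the retina N-Myc is known for driving the expansion of progenitors, and MYCN is amplified in some human retinoblastomas. The Skp2 protein, the substrate receptor of a ubiquitin ligase best known for degrading p27, is also one of several ligases that ubiquitinate c-Myc.

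The study measured single-cell transcriptomes of peripheral retina from mice at postnatal day 8, with 1 droplet library per genotype. DKO_Skp2het mice carried the alpha-Cre transgene, floxed Rb alleles, a p107 null genotype (p107-/-) and 1 mutant Skp2 allele (Skp2+/-), and the labels call them resistant to tumors. DKO mice carried the same Cre, floxed Rb and p107-/- with both Skp2 copies, and are labelled as prone to tumors. The alpha-Cre transgene is driven by a Pax6 enhancer that is active in progenitors of the peripheral retina. Both groups thus lack p107 in every cell and lose Rb only where the Cre acts, and cells in which it did not act cannot be told apart here. No retina with intact Rb and p107 was analysed here, and the number of animals behind each library is not given in the sources used here. The series title ties the duration of the cell cycle to the ability to transform.

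The promoters that held a match to one of the motifs named here are shown, since Rb and p107 are known to act through E2F factors bound at promoters. RefSeq promoters of the GRCm38.p6 build, 250 bases before to 50 bases after the annotated start, were at hand for 4 of the 5 members; Myc was the exception. Capitals mark matches to the E2F forms TTTGGCGC, TTTCGCGC and GGCGGGAA, the CHR element TTTGAA and the canonical E-box CACGTG, each searched on both strands. Mycn (chr12:12941787-12942086, minus strand), Mxd3 (chr13:55329682-55329981, minus strand) and Max (chr12:76962199-76962498, minus strand) read 5′ to 3′ as follows.
Mycn: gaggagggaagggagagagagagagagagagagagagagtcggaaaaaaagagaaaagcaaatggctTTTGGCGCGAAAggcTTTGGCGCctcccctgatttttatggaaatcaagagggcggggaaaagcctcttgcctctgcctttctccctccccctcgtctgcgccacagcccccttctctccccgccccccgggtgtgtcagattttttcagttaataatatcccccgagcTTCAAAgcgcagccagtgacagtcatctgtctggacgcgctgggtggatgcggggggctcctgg
Mxd3: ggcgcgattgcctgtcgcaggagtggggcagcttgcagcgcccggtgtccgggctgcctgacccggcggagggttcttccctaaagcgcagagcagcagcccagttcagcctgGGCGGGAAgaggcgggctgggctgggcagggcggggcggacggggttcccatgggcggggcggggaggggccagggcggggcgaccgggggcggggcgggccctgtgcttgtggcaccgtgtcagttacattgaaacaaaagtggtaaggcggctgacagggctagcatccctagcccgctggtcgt
Max: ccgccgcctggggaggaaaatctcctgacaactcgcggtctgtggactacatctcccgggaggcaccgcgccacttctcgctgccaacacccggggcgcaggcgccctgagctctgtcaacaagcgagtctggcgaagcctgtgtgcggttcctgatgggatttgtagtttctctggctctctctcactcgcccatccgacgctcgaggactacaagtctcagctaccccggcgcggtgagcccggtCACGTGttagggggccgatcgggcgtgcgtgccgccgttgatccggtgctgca

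The Mycn promoter held TTTGGCGC at 183 and again at 168 bases upstream of the start, and TTTCGCGC on the other strand at 179 bases, overlapping the first. It also held the CHR letters on the other strand at 14 bases. Mxd3 held GGCGGGAA at 137 bases upstream, Max held CACGTG at 3 bases upstream, and the Mycl window held none of these letters. The Mycl window (chr4:122995681-122995980, plus strand) lay wholly inside the gene span given below, so bases upstream of that span were not searched. Of all 32851 promoter windows of this length, 0.514% held TTTGGCGC, 0.323% held TTTCGCGC, 2.19% held GGCGGGAA and 2.96% held any of the 3. The E-box was found in 7.15% and the CHR letters in 17.9%. A match describes letters only, and no binding was measured.

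The genes lie apart in the genome, in GRCm38 coordinates of the GENCODE annotation. Myc (ENSMUSG00000022346) spans chr15:61985391-61990374 on the plus strand and Mycl (ENSMUSG00000028654) spans chr4:122995652-123002485 on the plus strand. Mycn (ENSMUSG00000037169) spans chr12:12936093-12941914 and Max (ENSMUSG00000059436) spans chr12:76937269-76962201, both on the minus strand. Mxd3 (ENSMUSG00000021485) spans chr13:55325168-55329823 on the minus strand, and 105 bases at its end overlap Prelid1, a mitochondrial lipid transfer gene on the other strand. Max overlaps Gm47218 by 1319 bases on the same strand, and Gm47218 is not among the counted genes. Whether transcripts of Gm47218 were counted as Max was not tested.

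There were 5196 barcodes with 25766024 UMIs in all in DKO_Skp2het, and 3621 barcodes with 24413761 UMIs in DKO. Barcodes carried 3874 UMIs at the median in DKO_Skp2het (lowest 2387) and 4939 in DKO (lowest 3420). After filtering, 4978 DKO_Skp2het and 3515 DKO cells were kept. The libraries shared 30 barcode sequences. Skp2, the gene that differs by genotype, stood at 56.8 CPM (UMIs per 1000000 UMIs of the population) in DKO_Skp2het and 80.7 CPM in DKO, a ratio of 0.704 (0.656 to 0.755). With 1 library a genotype no difference between libraries has a replicate check and no test was made, and all ranges in parentheses are 95% intervals for counting error only. Cells in which 3 or more of 1500 UMIs came from 26 core proliferation genes were called dividing, and there were 2297 (46.1%) in DKO_Skp2het and 2067 (58.8%) in DKO. At the edge of this rule, 793 DKO_Skp2het and 438 DKO cells had 2 or 3 such UMIs.

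Cells of both libraries were clustered together without use of the 5 members, and 18 of 29 clusters were named from marker genes. The other 11 clusters, with 47.4% of DKO_Skp2het and 38.7% of DKO cells, kept their numbers. No cluster met the naming rule for ganglion cell, pericyte, pigment epithelium or lens markers. Nor did any meet it for the markers of Ptf1a lineage precursors or of photoreceptor and bipolar precursors. CPM counts captured 3′ ends and is not scaled by gene length, so that levels of different genes also carry any difference in capture.

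Mycn and Mycl made up most of the Myc transcripts, and Myc was scarce outside a small set of cells. Over all kept cells Mycn stood at 114 CPM in DKO_Skp2het (2709 UMIs) and 145 CPM in DKO (3388 UMIs). Mycl stood at 101 CPM in DKO_Skp2het and 114 CPM in DKO. Myc stood at 19.7 CPM in DKO_Skp2het (469 UMIs) and 20.6 CPM in DKO (481 UMIs). Of the summed UMIs of Myc, Mycn and Mycl, Mycn took 48.5% (47.2 to 49.9) in DKO_Skp2het and 52.0% (50.8 to 53.2) in DKO. Myc took 8.40% (7.69 to 9.16) in DKO_Skp2het and 7.38% (6.76 to 8.04) in DKO. Their partner Max was at 84.6 CPM in DKO_Skp2het and 79.1 CPM in DKO, and Mxd3 at 118 CPM in DKO_Skp2het and 142 CPM in DKO.

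**Figure D1:**
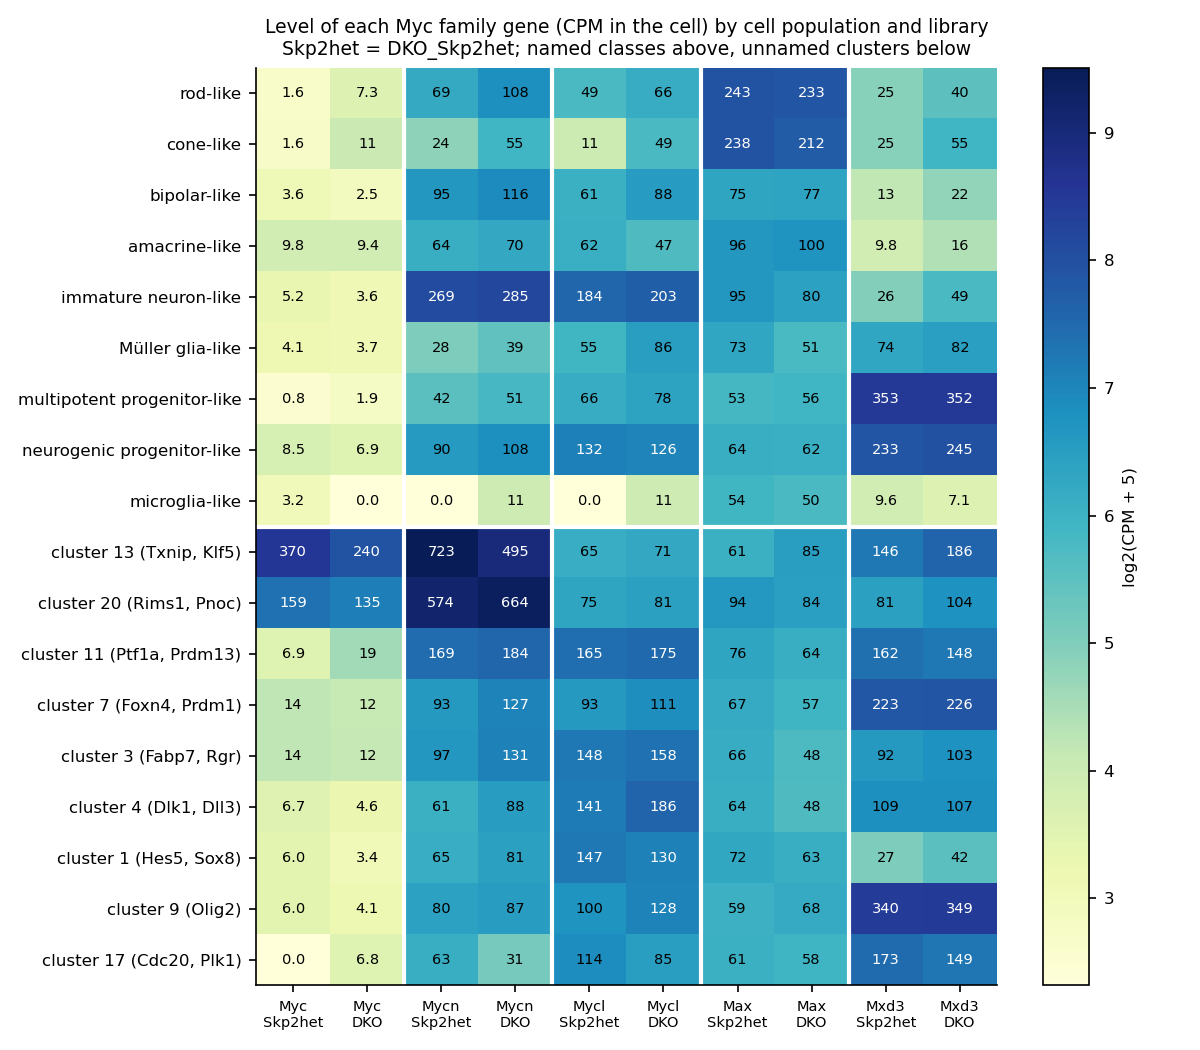
Level of each Myc family gene in CPM (number in the cell; colour, log2 of CPM plus 5) by cell population, with DKO_Skp2het left of DKO for each gene. Myc lies between 135 and 370 CPM in clusters 13 and 20 and at 18.8 CPM or less elsewhere, Mycn is highest in the same 2 clusters, Max is highest in rod-like and cone-like cells, and Mxd3 in the progenitor-like classes and cluster 9.

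The lowest levels give the background that free RNA may add. Microglia-like cells (41 in DKO_Skp2het, 31 in DKO) are not of retinal lineage, and they held 0 Mycn UMIs in DKO_Skp2het and 3 in DKO, 0 and 10.7 CPM. A count of 0 there allows up to 9.57 CPM. Their Mycl counts were the same, 0 in DKO_Skp2het and 3 in DKO, and their Mxd3 level was 9.57 CPM in DKO_Skp2het and 7.10 CPM in DKO. Max, which most cell types are known to express, stood at 54.2 CPM in the DKO_Skp2het microglia-like cells and 49.7 CPM in those of DKO. Myc had 1 UMI there in DKO_Skp2het and none in DKO, and a count of 0 in DKO allows up to 10.7 CPM. Myc levels at or under these limits in other populations cannot be told from background.

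Mycl led in Müller glia-like and progenitor-like cells. Müller glia-like cells, the radial glia of the retina, held Mycl at 55.2 CPM in DKO_Skp2het (674 cells) and 85.5 CPM in DKO (465 cells). Mycn in the same cells was at 27.8 CPM in DKO_Skp2het and 38.9 CPM in DKO. Mycl thus took 63.4% of the 3 genes' UMIs in the DKO_Skp2het Müller glia-like cells and 66.8% in those of DKO. Of these cells 592 in DKO_Skp2het and 425 in DKO were of cluster 0. Its Müller glia markers averaged 1.31 higher on the log2 scale, and those of multipotent progenitors 1.02. Cluster 16 (82 DKO_Skp2het and 40 DKO cells) averaged 3.06 for Müller glia markers. There Mycl took 45.5% and Mycn 36.4% in DKO_Skp2het, within counting error. In DKO it held 9 Mycl and 6 Mycn UMIs. The lead of Mycl beyond counting error was thus seen in cluster 0 only. In multipotent progenitor-like cells (461 in DKO_Skp2het, 512 in DKO, a cluster led by mitotic genes) Mycl stood at 66.5 CPM in DKO_Skp2het and 77.7 CPM in DKO. Mycn was lower there, 41.7 CPM in DKO_Skp2het and 51.3 CPM in DKO, and Myc had 2 UMIs in DKO_Skp2het and 5 in DKO. In neurogenic progenitor-like cells Mycl was at 132 CPM in DKO_Skp2het and 126 CPM in DKO, and Mycn at 90.4 CPM in DKO_Skp2het and 108 CPM in DKO. There the 2 shares lay apart beyond counting error in DKO_Skp2het only. Among unnamed clusters Mycl also led in cluster 4 (leading genes Dlk1, Pkib and Dll3), where it took 67.5% in DKO_Skp2het and 66.9% in DKO. It led in cluster 1 (Hes5, Sox8) too, with 67.4% in DKO_Skp2het and 60.7% in DKO.

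**Figure D2:**
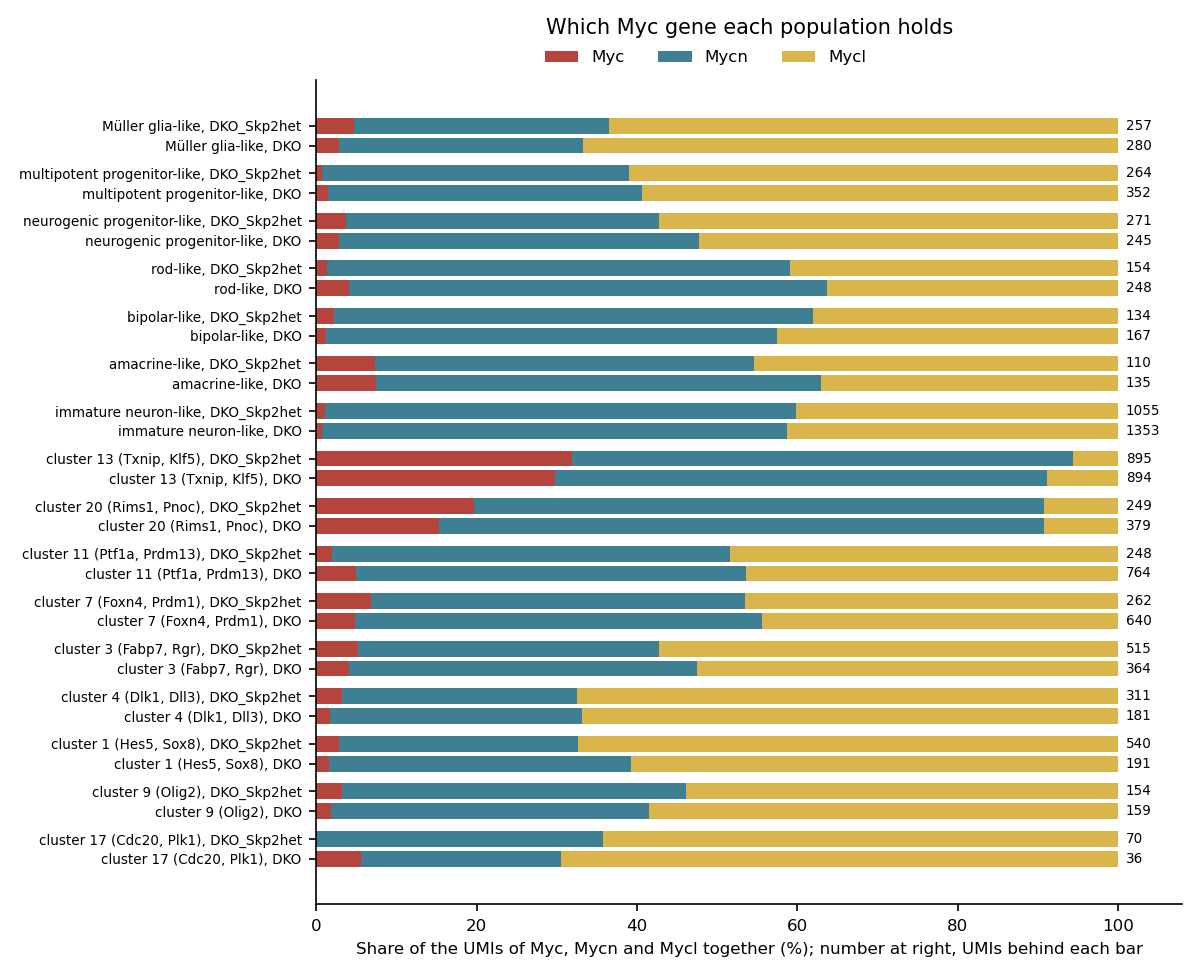
Share of Myc, Mycn and Mycl in their summed UMIs for each population, DKO_Skp2het above DKO, with the number of UMIs at the right of each bar. Mycl holds the larger share in Müller glia-like and progenitor-like cells, Mycn in neurons, and the Myc share is 15.3% or more in clusters 13 and 20.

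Mycn took the larger share in immature neuron-like and rod-like cells beyond counting error in both libraries. Immature neuron-like cells, which carry Igfbpl1, Nhlh2 and Ebf markers, held Mycn at 269 CPM in DKO_Skp2het (518 cells) and 285 CPM in DKO (431 cells). They also had the highest Mycl of any population with at least 30 cells, 184 CPM in DKO_Skp2het and 203 CPM in DKO, although the next in order overlapped within counting error in both libraries. Together these cells held 22.9% of all DKO_Skp2het Mycn UMIs and 23.1% of those of DKO. After thinning every cell to 1500 UMIs, 29.3% of DKO_Skp2het and 36.4% of DKO immature neuron-like cells had a Mycn UMI, against none of the microglia-like cells in either library. Without thinning the shares were 58.1% in DKO_Skp2het and 69.1% in DKO, at median depths of 3565.5 UMIs in DKO_Skp2het and 4588 UMIs in DKO. In rod-like cells Mycn was at 69.5 CPM in DKO_Skp2het (216 cells) and 108 CPM in DKO (158 cells), and it took 57.8% of the 3 genes' UMIs in DKO_Skp2het and 59.7% in DKO. Taken apart, rod-like clusters 10 and 23 each had the 2 shares within counting error in DKO_Skp2het and beyond it in DKO. Cluster 23, whose second nearest markers were those of immature neurons, held 46 of the 89 rod-like Mycn UMIs in DKO_Skp2het and 64 of 148 in DKO. Bipolar-like cells, the interneurons behind the photoreceptors, held Mycn at 95.5 CPM in DKO_Skp2het and 116 CPM in DKO, and Mycl at 60.9 CPM in DKO_Skp2het and 87.8 CPM in DKO. The order of Mycn and Mycl was within counting error in bipolar-like and cone-like cells of DKO and in amacrine-like cells of DKO_Skp2het. Cluster 11 (Ptf1a and Prdm13, transcription factors of the amacrine and horizontal lineage) held both at like levels, with Mycn at 169 CPM in DKO_Skp2het and 184 CPM in DKO and Mycl at 165 CPM in DKO_Skp2het and 175 CPM in DKO.

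Max was high in photoreceptors. Rod-like cells held Max at 243 CPM (217 to 271) in DKO_Skp2het and 233 CPM (208 to 260) in DKO. Cone-like cells held it at 238 CPM (201 to 279) in DKO_Skp2het (62 cells) and 212 CPM (178 to 251) in DKO (41 cells). The next population in both libraries was amacrine-like cells, at 96.0 CPM in DKO_Skp2het and 100 CPM in DKO, below both photoreceptor classes beyond counting error. All other populations with at least 30 cells lay between 38.7 and 95.5 CPM in DKO_Skp2het and between 47.6 and 84.7 CPM in DKO. Over 16 clusters the 5 genes whose pattern was nearest to that of Max, looked up after its values had been seen, were Uqcc3, Reep6, Gm11744, Gnb1 and Nxnl2, with Pearson correlations of 0.87 to 0.95 across clusters. Reep6 is a rod trafficking protein and Gnb1 the beta subunit of rod transducin. These correlations describe clusters that share libraries and depth, so they carry no test.

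Mxd3 followed the cell cycle. It stood at 209 CPM in dividing DKO_Skp2het cells and 25.9 CPM in the other DKO_Skp2het cells, a ratio of 8.06 (7.16 to 9.10). In DKO it was 214 CPM in dividing cells and 24.1 CPM in other cells, a ratio of 8.87 (7.72 to 10.2). Mxd3 is known as the member of the Mxd group that is made in proliferating cells, while its relatives accompany differentiation. By this contrast it ranked 79 of 11298 genes in DKO_Skp2het and 59 of 11168 in DKO. Myc, at 34.0 CPM in dividing and 5.29 CPM in other DKO_Skp2het cells, had a ratio of 6.43 (4.92 to 8.52), and in DKO, at 30.1 CPM in dividing and 5.00 CPM in other cells, of 6.03 (4.42 to 8.42). Without cluster 13, an alternative chosen after seeing the data, the Myc ratio was 2.03 (1.49 to 2.80) in DKO_Skp2het and 2.55 (1.82 to 3.64) in DKO. This still included cluster 20, with 49 of 469 Myc UMIs in DKO_Skp2het and 58 of 481 in DKO. The Myc levels of the other cells lay under the limits of the microglia-like cells, so they cannot be told from background. Over all kept cells 2 of 5 members, Mxd3 and Myc, were higher in dividing cells by more than 2-fold in each library. Of all genes 5.3% were so in DKO_Skp2het and 5.86% in DKO. None was lower by more than 2-fold, where 10.4% of genes were so in DKO_Skp2het and 11.4% in DKO.

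Mycn, Mycl and Max differed less between dividing and other cells. Mycn was 130 CPM in dividing and 96.9 CPM in other DKO_Skp2het cells (ratio 1.34, 1.24 to 1.45), and 162 CPM in dividing and 118 CPM in other DKO cells (ratio 1.37, 1.27 to 1.48). The higher Mycn of dividing cells lay largely in cluster 13. Without it the ratio was 0.921 (0.845 to 1.00) in DKO_Skp2het and 1.14 (1.05 to 1.23) in DKO. The ratio of Mycl was 0.984 (0.908 to 1.07) in DKO_Skp2het and 1.02 (0.940 to 1.10) in DKO. Max was lower in dividing cells, with ratios of 0.652 (0.596 to 0.714) in DKO_Skp2het and 0.685 (0.625 to 0.752) in DKO. Of the rod-like cells, in which it was high, 22 of 216 in DKO_Skp2het and 39 of 158 in DKO were dividing. Its ratio there was 0.518 (0.316 to 0.807) in DKO_Skp2het and 0.882 (0.678 to 1.14) in DKO. In Müller glia-like cells it was 0.887 in DKO_Skp2het and 1.12 in DKO, both with intervals that include 1. In immature neuron-like cells it was 0.767 (0.480 to 1.17) in DKO_Skp2het and 1.38 (1.02 to 1.84) in DKO. The part of cell class in the Max ratio was not tested. Prelid1, the gene that overlaps Mxd3, did not follow Mxd3, with ratios of 0.848 in DKO_Skp2het and 0.805 in DKO.

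Dividing cells carried more Mxd3 in each of the 3 named classes with at least 20 cells of both kinds in each library. In Müller glia-like cells it was 134 CPM in dividing and 44.9 CPM in other DKO_Skp2het cells, and 143 CPM in dividing and 41.5 CPM in other DKO cells. In rod-like cells it was 108 CPM in the 22 dividing and 13.3 CPM in the other DKO_Skp2het cells, and 115 CPM in the 39 dividing and 10.2 CPM in the other DKO cells. In immature neuron-like cells it was 101 CPM in dividing and 14.6 CPM in other DKO_Skp2het cells, and 120 CPM in dividing and 24.8 CPM in other DKO cells. Dividing cells of these 3 classes thus lay between 101 and 143 CPM. The progenitor-like clusters, in which nearly every cell was dividing, held more: 353 CPM in DKO_Skp2het and 352 CPM in DKO in multipotent progenitor-like cells, and 340 CPM in DKO_Skp2het and 349 CPM in DKO in cluster 9 (Olig2). These 2 did not differ beyond counting error in either library, and both lay above all other populations. After thinning, 40.6% of DKO_Skp2het and 39.1% of DKO multipotent progenitor-like cells had a Mxd3 UMI (80.9% and 80.3% without thinning), against 2.44% and 0% of microglia-like cells.

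Mxd3 was higher at each step of core proliferation UMIs. These are levels summed over cells, which do not tell a change per cell from a change in the share of cells with Mxd3. It was 12.7 CPM in DKO_Skp2het and 12.5 CPM in DKO among cells with no core proliferation UMI. With 1 or 2 such UMIs it was 40.6 CPM in DKO_Skp2het and 36.9 CPM in DKO, and with 3 to 5 it was 97.3 CPM in DKO_Skp2het and 99.4 CPM in DKO. Cells with 6 to 9 held 155 CPM in DKO_Skp2het and 146 CPM in DKO, and cells with 10 or more held 271 CPM in DKO_Skp2het and 270 CPM in DKO. The libraries overlapped within counting error at each step. Dividing cells were also split in 3 by the share of S phase UMIs among their S phase and G2M UMIs, a range and not a set of types, with 503 of 4355 cells within 0.02 of a dividing line. Mxd3 was 129 CPM in DKO_Skp2het and 137 CPM in DKO at the S end, 233 CPM in DKO_Skp2het and 236 CPM in DKO in the middle, and 266 CPM in DKO_Skp2het and 261 CPM in DKO at the G2M end. The 5 genes with the most alike pattern over clusters were Spc24, Cdk5rap2, Cdk1, Nusap1 and Cks1b, kinetochore, centrosome, cyclin-dependent kinase and spindle genes, with correlations of 0.97 to 0.98 in both libraries. Cdk1 and Nusap1 belong to the core list that defined dividing cells.

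**Figure D3:**
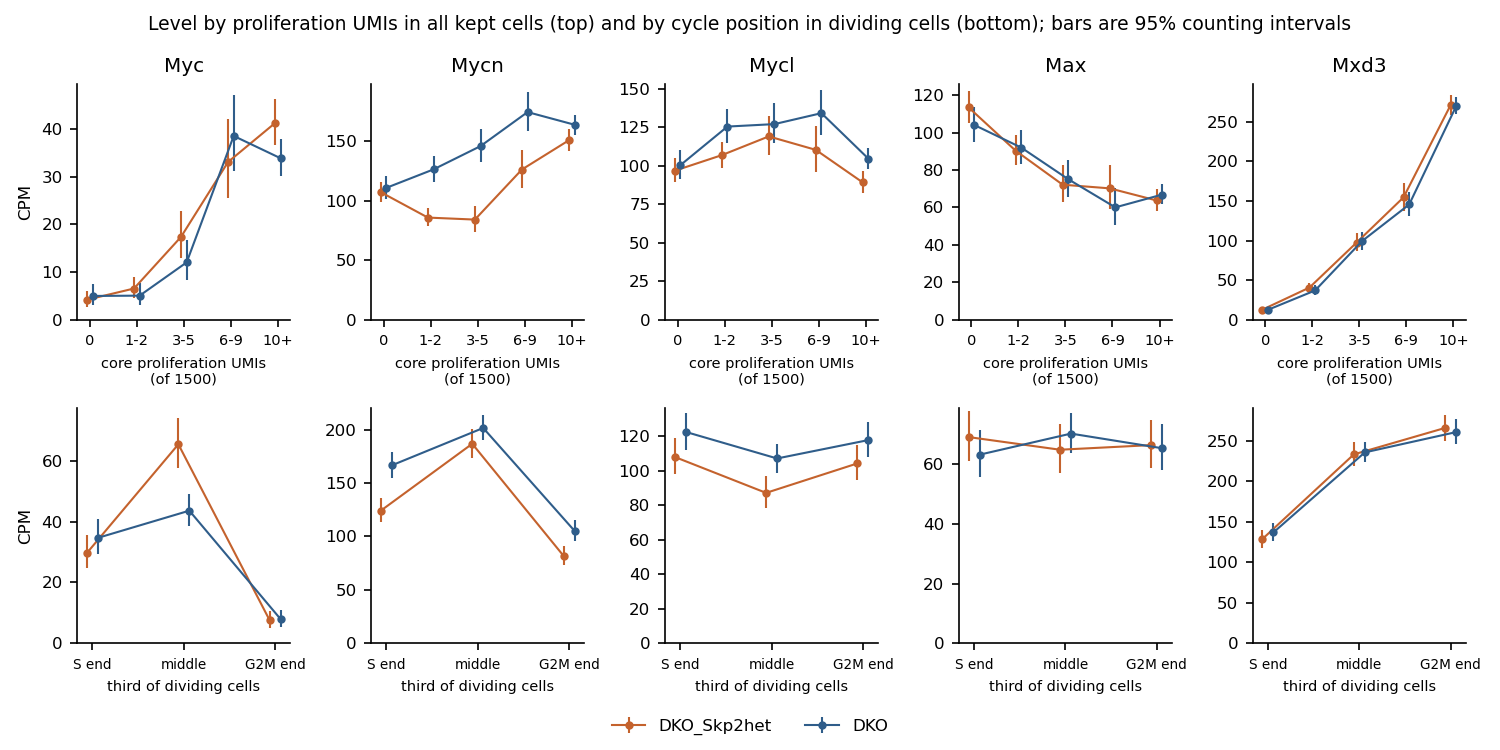
Level in CPM of each member by the number of core proliferation UMIs in all kept cells (top) and by position between S phase and G2M among dividing cells (bottom), for DKO_Skp2het and DKO; bars are 95% counting intervals. Mxd3 is higher at each step in both libraries, up to 271 CPM in DKO_Skp2het and 270 CPM in DKO, and Myc and Mycn are highest in the middle of the S to G2M range.

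Myc and Mycn were lowest at the G2M end. Myc was 29.7 CPM in DKO_Skp2het and 34.7 CPM in DKO at the S end, 65.5 CPM in DKO_Skp2het and 43.6 CPM in DKO in the middle, and 7.45 CPM in DKO_Skp2het and 7.83 CPM in DKO at the G2M end. Mycn was 124 CPM in DKO_Skp2het and 167 CPM in DKO at the S end, 187 CPM in DKO_Skp2het and 202 CPM in DKO in the middle, and 81.7 CPM in DKO_Skp2het and 105 CPM in DKO at the G2M end. Of the Myc UMIs of dividing cells, cluster 13 held 286 of 406 in DKO_Skp2het and 266 of 437 in DKO. Of those of Mycn it held 559 of 1555 in DKO_Skp2het and 549 of 2348 in DKO. The levels by position were not taken without cluster 13, so its part in them was not tested. The intervals of the libraries did not overlap for Mycn at the S end or the G2M end, where DKO_Skp2het was lower. In the middle they did not overlap for Myc, which was higher in DKO_Skp2het, or for Mycl, at 87.1 CPM (78.1 to 96.9) in DKO_Skp2het and 107.1 CPM (98.9 to 116) in DKO. Max varied less, lying between 63.3 and 70.4 CPM at all 3 positions in both libraries.

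Most Myc transcripts came from 1 small cluster. Cluster 13 held 103 DKO_Skp2het and 99 DKO cells, which were 2.07% and 2.82% of the kept cells, and it was singled out after its values had been seen. It held 286 of 469 Myc UMIs in DKO_Skp2het (61.0%) and 266 of 481 in DKO (55.3%). Its Myc level was 370 CPM (328 to 415) in DKO_Skp2het and 240 CPM (212 to 270) in DKO. Its Mycn level was 723 CPM (664 to 786) in DKO_Skp2het and 495 CPM (454 to 538) in DKO. Every cell of this cluster was dividing, and it was nearest to the neurogenic progenitor markers without passing the rule for a name. Its leading genes were Txnip, an inhibitor of thioredoxin, Myc, Zfp503, Sp9, Klf5 and Gadd45b.

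Set beside all other dividing cells, cluster 13 was far higher in Myc and Mycn than in the other members. In DKO_Skp2het Myc was 370 CPM in cluster 13 and 10.7 CPM in other dividing cells, a ratio of 34.4 (27.7 to 43.0), first of 9241 genes. In DKO it was 240 CPM in cluster 13 and 12.8 CPM in other dividing cells, a ratio of 18.8 (15.4 to 22.9). Mycn had ratios of 8.11 (7.29 to 9.0) in DKO_Skp2het and 3.68 (3.34 to 4.06) in DKO. These 2 of 5 members were higher by more than 2-fold, where 9.04% of genes were so in DKO_Skp2het and 7.19% in DKO, and none was lower by as much, where 14.6% and 10.7% were. Mycl was lower, with ratios of 0.631 (0.466 to 0.838) in DKO_Skp2het and 0.604 (0.476 to 0.757) in DKO. Since clusters are made from expression, these ratios describe the cluster and are no test. A UMI of both Myc and Mycn was found in 71 of 103 DKO_Skp2het and 67 of 99 DKO cells of the cluster at full depth. At that depth Mycn was found in 92.2% of cells with a Myc UMI and 88.5% of those without in DKO_Skp2het, and in 97.1% of cells with and 93.3% of those without in DKO. After thinning to 1500 UMIs the shares were 63.0% with and 49.1% without in DKO_Skp2het (46 and 57 cells), and 72.4% with and 40.0% without in DKO (29 and 70 cells).

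**Figure D4:**
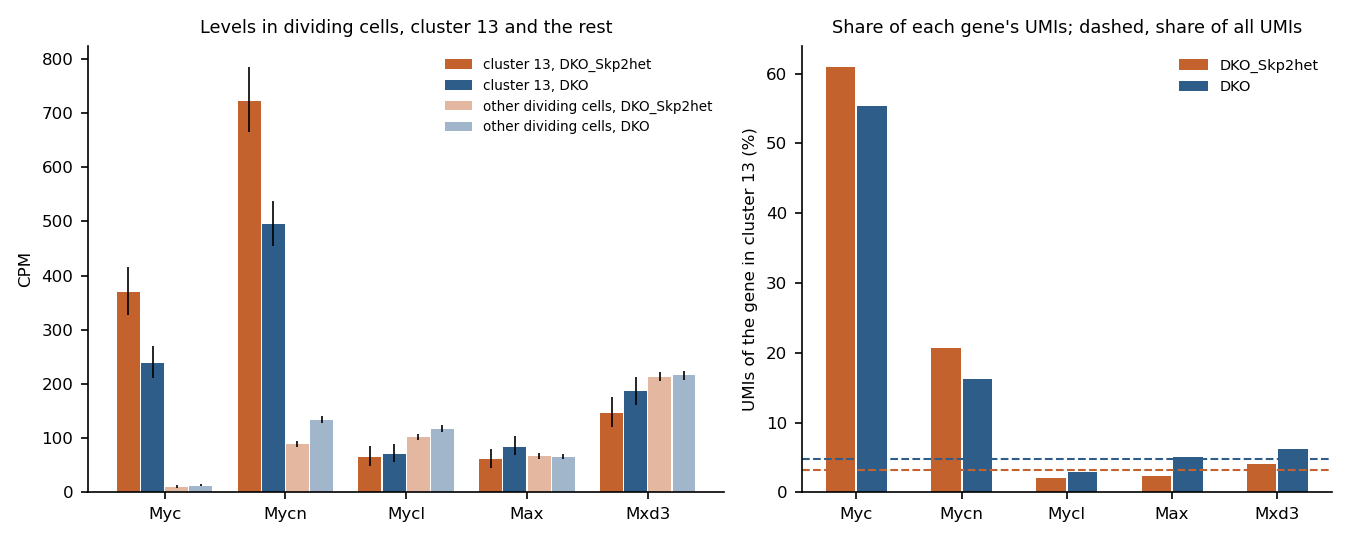
Left, level in CPM of each member in cluster 13 and in the other dividing cells of both libraries, with 95% counting intervals. Right, share of each gene's UMIs found in cluster 13, with the cluster's share of all UMIs dashed: Myc is at 61.0% in DKO_Skp2het and 55.3% in DKO, far above the dashed lines.

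Genes of other groups, named here after their values had been seen, were also high in cluster 13. The summed level of 12 p53 target genes, a list added after the data had been seen, was 5357 CPM in cluster 13 and 1144 CPM in other dividing DKO_Skp2het cells, and 4372 CPM in cluster 13 and 1098 CPM in other dividing DKO cells. Cdkn1a, the p21 inhibitor, was 3604 CPM in cluster 13 and 558 CPM in other dividing DKO_Skp2het cells, and 2982 CPM in cluster 13 and 519 CPM in other dividing DKO cells. Mdm2, the ubiquitin ligase of p53, had ratios of 7.62 in DKO_Skp2het and 5.89 in DKO. S phase genes summed to 10729 CPM in cluster 13 and 5718 CPM in other dividing DKO_Skp2het cells, and to 10071 CPM in cluster 13 and 5476 CPM in other dividing DKO cells. The cells of cluster 13 had a median of 5671 UMIs in DKO_Skp2het and 7988 in DKO, against 4159 in DKO_Skp2het and 5078 in DKO over all dividing cells. The median share of mitochondrial UMIs was 1.73% in DKO_Skp2het and 1.81% in DKO, against 3.52% in DKO_Skp2het and 3.33% in DKO over all kept cells. In cluster 3 the p53 targets summed to 2147 CPM in DKO_Skp2het and 1876 CPM in DKO, and Myc there was 13.5 CPM in DKO_Skp2het and 12.4 CPM in DKO. The part of depth, mitochondrial share or p53 targets in the Myc level was not tested.

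The 20 ribosome biogenesis genes, classical Myc targets, summed to 4095 CPM in cluster 13 and 2494 CPM in other dividing DKO_Skp2het cells, and to 3665 CPM in cluster 13 and 2348 CPM in other dividing DKO cells. In DKO_Skp2het 13 of the 19 with enough UMIs were higher in cluster 13, with a median log2 difference of 0.34, where all genes had a median of -0.13. In DKO 16 of 20 were higher, with a median of 0.47, where all genes had -0.11. Nop56, a small nucleolar ribonucleoprotein, led with ratios of 4.80 in DKO_Skp2het and 3.56 in DKO, followed by nucleostemin (Gnl3) with 4.11 in DKO_Skp2het and 2.65 in DKO. Among the lowest, Mrto4 had 0.655 and Rcl1 0.678 in DKO_Skp2het, and Wdr12 had 0.593 and Fbl 0.818 in DKO. Metabolic and translation targets were split: 9 of 20 were higher in DKO_Skp2het and 11 of 20 in DKO, with medians of -0.02 in DKO_Skp2het and 0.28 in DKO. Of these, 6 in DKO_Skp2het and 7 in DKO were more than 2-fold higher, and 3 in DKO_Skp2het and 0 in DKO more than 2-fold lower. Over all genes, 9.04% in DKO_Skp2het and 7.19% in DKO were so much higher, and 14.6% and 10.7% so much lower. Ppat, the first enzyme of purine synthesis, had ratios of 5.19 in DKO_Skp2het and 5.68 in DKO, and the transferrin receptor Tfrc had 5.29 in DKO_Skp2het and 4.31 in DKO. The lowest were Nme2, a nucleotide kinase, at 0.189 (0.0227 to 0.694) and Phb at 0.423 in DKO_Skp2het, and Nme1 at 0.564 and Nme2 at 0.585 in DKO.

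The partners of Max and the turnover genes of Myc were split in cluster 13. Of the 10 partners with enough UMIs, 6 were higher and 4 lower in DKO_Skp2het, and 4 higher and 6 lower in DKO, with 1 more than 2-fold higher in each library. Of 13 turnover genes, 7 were higher and 6 lower in DKO_Skp2het, with 1 past 2-fold in each direction, and 4 were higher and 9 lower in DKO, with 1 more than 2-fold higher. Over all genes, 9.04% in DKO_Skp2het and 7.19% in DKO were more than 2-fold higher, and 14.6% and 10.7% more than 2-fold lower. The 4 genes given next were chosen after their values had been seen. Mxd1, a repressor partner of Max, was 28.5 CPM in cluster 13 and 12.5 CPM in other dividing DKO_Skp2het cells, and 35.1 CPM in cluster 13 and 14.7 CPM in other dividing DKO cells. Fbxw7, the substrate receptor that sends phosphorylated Myc to degradation, was 40.1 CPM in cluster 13 and 84.7 CPM in other dividing DKO_Skp2het cells, and 58.5 CPM in cluster 13 and 79.0 CPM in other dividing DKO cells. Skp2 was 128 CPM in cluster 13 and 66.6 CPM in other dividing DKO_Skp2het cells, and 229 CPM in cluster 13 and 90.9 CPM in other dividing DKO cells. Fbxo28, another ligase subunit reported to act on Myc, had ratios of 2.28 in DKO_Skp2het and 1.79 in DKO.

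Cluster 20 held the next highest Myc. Its 41 DKO_Skp2het and 45 DKO cells, led by Rims1, Scg2, Pnoc and Calb2, genes of synapses and neuropeptides, held Myc at 159 CPM (117 to 210) in DKO_Skp2het and 135 CPM (102 to 174) in DKO. Mycn was 574 CPM (492 to 665) in DKO_Skp2het and 664 CPM (589 to 745) in DKO, the highest Mycn level of any DKO population. Of these cells 80.5% in DKO_Skp2het and 71.1% in DKO were dividing, and p53 targets summed to 2103 CPM in DKO_Skp2het and 2274 CPM in DKO, against 1068 CPM in DKO_Skp2het and 1092 CPM in DKO over all cells. Myc and Mycn UMIs were found together in 19 of 41 DKO_Skp2het and 19 of 45 DKO cells. Outside clusters 13 and 20, no cluster with at least 30 cells exceeded 14.2 CPM of Myc in DKO_Skp2het (cluster 12, amacrine-like) or 18.8 CPM in DKO (cluster 11). The level of cluster 11 in DKO (13.3 to 25.8) lay above the limit of the microglia-like cells, and those of clusters 3 and 7 had intervals that reach below it in both libraries.

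The genes whose pattern over 16 clusters was most like that of Myc were Rnase4, Cdkn2aip, Gadd45b, Akap8 and Zfp503, with correlations of 0.86 to 0.92 in both libraries. Cluster 20 is not among the 16, and cluster 13 stands far above the rest in Myc. Over the 15 clusters without cluster 13, an alternative chosen after seeing the data, Zfp503 stood at 0.78 in DKO_Skp2het and 0.88 in DKO, and the lowest, Gadd45b, at 0.30 in DKO_Skp2het and 0.39 in DKO. Those most like Mycn were Mex3b, Hnrnph1, Tbpl1, Ythdf2 and Nol8 (0.82 to 0.89), RNA-binding proteins among them, and those most like Mycl were Txnrd1, Eif4ebp2, Ctbp1, Ypel1 and F2r (0.82 to 0.90). Among the members themselves Myc and Mycn stood at 0.67 in DKO_Skp2het and 0.60 in DKO over the 16 clusters, and at 0.19 in DKO_Skp2het and 0.18 in DKO without cluster 13. Mycl and Max ran in opposite directions, at -0.44 in DKO_Skp2het and -0.66 in DKO. Each of the 16 points had at least 50 cells per library, and 8963 genes were compared.

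Between the libraries the 5 members differed by unequal amounts. Over all cells the ratio of DKO_Skp2het to DKO was 0.782 (0.743 to 0.823) for Mycn, 0.829 (0.788 to 0.872) for Mxd3 and 0.888 (0.840 to 0.939) for Mycl. It was 0.953 (0.838 to 1.08) for Myc and 1.07 (1.00 to 1.14) for Max. Of the 5 members 1, Mycn, was lower in DKO_Skp2het by more than 20%, where 5.59% of genes with at least 100 UMIs were so, and none was higher by more than 25%, where 9.4% of genes were. The share of dividing cells also differed between the libraries. Within dividing cells the ratio of Mxd3 was 0.979 (0.929 to 1.03) and within other cells 1.08 (0.902 to 1.29), both including 1. Mycn was lower in DKO_Skp2het in each state, with 0.805 (0.754 to 0.859) in dividing and 0.821 (0.754 to 0.893) in other cells, as was Mycl with 0.875 (0.812 to 0.943) in dividing and 0.905 (0.831 to 0.985) in other cells. With every cell thinned to 1500 UMIs the log2 difference of Mycl was -0.0422 over all cells and turned to 0.0535 in other cells, the other direction. By the same limits none of the 5 members was past in either direction in dividing cells, where 9.81% of genes were higher and 8.08% lower, or in other cells, where 9.69% were higher and 9.23% lower.

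Cluster by cluster, Mycn was lower in DKO_Skp2het in 16 of the 20 clusters with at least 30 cells per library and 30 UMIs, and its interval lay below 1 in 6 of them. The lowest was the cone-like cluster, with 23.6 CPM in DKO_Skp2het and 55.4 CPM in DKO, a ratio of 0.426 (0.216 to 0.801). The exception beyond counting error among these 20 was cluster 13, where both Mycn, with a ratio of 1.46 (1.30 to 1.65), and Myc, with 1.54 (1.30 to 1.83), were higher in DKO_Skp2het. Leaving cluster 13 out, the Mycn ratio over all cells was 0.729 (0.689 to 0.771) and that of Myc was 0.819 (0.669 to 1.00). Pooled within clusters and dividing states, the Mycn ratio was 0.948 (0.900 to 0.998), and without cluster 13 it was 0.854 (0.805 to 0.905). Pooling sets aside how cells were spread over clusters and states, but differences in make-up within them still enter. For Myc the pooled ratio was 1.30 (1.14 to 1.48) with cluster 13 and 1.00 (0.810 to 1.24) without it. Pooled in the same way, Mycl was at 0.876 (0.827 to 0.929) and Max at 1.08 (1.01 to 1.15), while Mxd3 was at 0.976 (0.927 to 1.03).

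**Figure D5:**
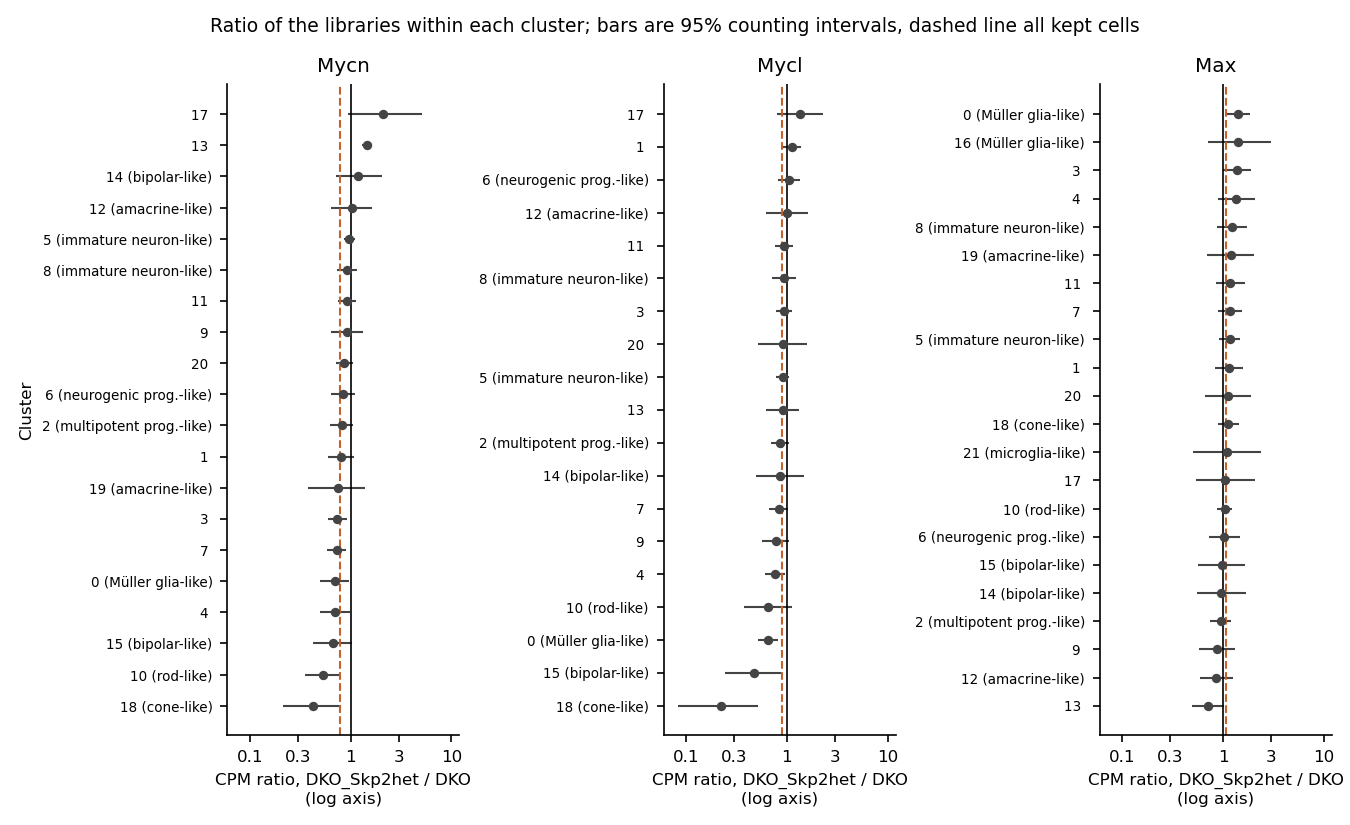
Ratio of CPM in DKO_Skp2het to that in DKO (log axis) for Mycn, Mycl and Max in each cluster with at least 30 cells per library and 30 UMIs, with 95% counting intervals and the ratio over all cells dashed. Mycn lies below 1 in 16 of 20 clusters and above it beyond counting error only in cluster 13. Max lies above 1 in 16 of 22, beyond counting error in 1 of them.

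Mycl was lower in DKO_Skp2het in 15 of 19 clusters, 4 of them beyond counting error, among clusters with at least 30 cells per library and 30 UMIs, and in none of these 19 was it higher beyond counting error. With fewer UMIs, amacrine-like cluster 19 held 17 Mycl UMIs in DKO_Skp2het and 9 in DKO, a ratio of 2.73 (1.15 to 6.94). In Müller glia-like cells its ratio was 0.645 (0.520 to 0.80), and it was as low in those called other, at 52.9 CPM in DKO_Skp2het and 87.5 CPM in DKO, as over all of them. Max went the other way in these cells, at 72.8 CPM in DKO_Skp2het and 50.8 CPM in DKO, a ratio of 1.43 (1.14 to 1.82). In cone-like cells Mycl was 11 CPM in DKO_Skp2het (7 UMIs) and 49.1 CPM in DKO (31 UMIs). Max in the same cells was 238 CPM in DKO_Skp2het and 212 CPM in DKO, a ratio whose interval of 0.882 to 1.42 includes 1.

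Dividing rod-like cells, a set singled out after its values had been seen, differed between the libraries in Mycn. The 22 dividing DKO_Skp2het cells held 10 Mycn UMIs, 63.6 CPM, and the 39 dividing DKO cells held 87, 223 CPM, a ratio of 0.286 (0.132 to 0.551). The other rod-like cells held 70.3 CPM in DKO_Skp2het and 62.5 CPM in DKO, with a ratio of 1.12 (0.795 to 1.60). Mycl and Mxd3 in the dividing rod-like cells did not show this difference, with ratios of 0.933 (0.479 to 1.73) and 0.940 (0.504 to 1.67). The dividing rod-like cells had a median of 5252 UMIs in DKO_Skp2het and 8056 in DKO, and the other rod-like cells 4370 and 6202. The rod-like class joined 3 clusters. Of the dividing DKO cells 27, with 49 of the 87 Mycn UMIs, were of cluster 10, at 172 CPM. Of all rod-like Mycn UMIs, cluster 23 held 46 of 89 in DKO_Skp2het and 64 of 148 in DKO. The part of this mix of clusters in the Mycn ratio was not tested. Mycn in dividing immature neuron-like cells was 252 CPM in DKO_Skp2het (38 cells) and 335 CPM in DKO (88 cells), a ratio of 0.752 (0.576 to 0.973). In the other immature neuron-like cells it was 272 CPM in DKO_Skp2het and 268 CPM in DKO.

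The rest of the Max network differed little between the libraries. Of 11 other partners and regulators, 5 were higher and 6 lower in DKO_Skp2het over all cells, with a median log2 difference of -0.01, where all genes had 0.02. Mxi1, a repressor partner of Max, was 87.5 CPM in DKO_Skp2het and 93.5 CPM in DKO, and Mxd4, another, was 53.2 CPM in DKO_Skp2het and 51.7 CPM in DKO. Mnt, which represses Myc targets in most tissues, had a ratio of 0.900 (0.802 to 1.01), Mga 1.06 (0.974 to 1.15) and Mxd1 0.948 (0.816 to 1.10). Mycbp2, a large ubiquitin ligase of axons that binds Myc, was 94.5 CPM in DKO_Skp2het and 105 CPM in DKO, a ratio of 0.901 (0.851 to 0.955). Mlx, Mlxip, Zbtb17 and Mycbp had ratios between 0.931 and 1.10, each with an interval that includes 1. Mlxipl, with 32 UMIs in DKO_Skp2het and 22 in DKO, was the 1 gene of the list past either limit, at 1.42 (0.801 to 2.57). Mxd4 was low where Mxd3 was high: its ratio of dividing to other cells was 0.556 (0.495 to 0.625) in DKO_Skp2het and 0.548 (0.489 to 0.615) in DKO. Mxi1 had ratios of 1.27 (1.17 to 1.39) in DKO_Skp2het and 1.18 (1.08 to 1.29) in DKO.

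Of 13 genes that act on the stability of Myc protein, 8 were higher and 5 lower in DKO_Skp2het, and 1, Skp2, was lower by more than 20%. Fbxw7 was 85.5 CPM in DKO_Skp2het and 80.5 CPM in DKO. The deubiquitinase Usp37 had a ratio of 0.880 (0.813 to 0.953), and Huwe1 one of 0.947 (0.891 to 1.01). The ratios of Usp28, Usp36, Aurka, Plk1, Fbxo28, Trpc4ap, Stub1 and Gsk3b lay between 0.960 and 1.13. Within dividing cells the mitotic kinases Aurka and Plk1, which stabilise N-Myc and are members of the core list that defines these cells, had ratios of 1.31 (1.2 to 1.43) and 1.27 (1.16 to 1.40). Levels of Myc protein were not measured.

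Over all cells 1 of the 40 targets of Myc was past either limit between the libraries. Of all genes, 9.4% were more than 25% higher in DKO_Skp2het and 5.59% more than 20% lower. Ribosome biogenesis genes were higher in DKO_Skp2het in 10 of 20 and lower in 10 over all cells, with a median log2 difference of 0.00, and none was past 25% higher or 20% lower. The 2 highest were Bop1 at 1.21 (1.03 to 1.42) and Nop16 at 1.2 (1.08 to 1.34), and the 2 lowest were Polr1b at 0.851 (0.631 to 1.15) and Ddx21 at 0.872 (0.806 to 0.943). Metabolic and translation targets were higher in 15 of 20, with a median of 0.08, and 1, Srm, was higher by more than 25%. This spermidine synthase had a ratio of 1.36 (1.26 to 1.48) and the glycolytic enzyme Pkm 1.18 (1.15 to 1.21). At the low end, Cad had 0.957 (0.795 to 1.15) and Odc1, the first enzyme of polyamine synthesis, 0.847 (0.818 to 0.877). In other cells 13 of 20 ribosome biogenesis genes were higher, with a median of 0.11, and 17 of 20 metabolic targets, also with a median of 0.11, where all genes had 0.01. Of each list 2 were more than 25% higher there and none more than 20% lower, where 9.69% and 9.23% of all genes were so. In dividing cells 8 of 20 ribosome biogenesis genes and 14 of 20 metabolic targets were higher, with medians of -0.02 and 0.05, where all genes had 0.02. Odc1 was also the target with the highest ratio of dividing to other cells, 2.40 (2.27 to 2.54) in DKO_Skp2het and 2.70 (2.54 to 2.88) in DKO.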

How the data were processed

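Single-cell RNA was captured with the 10x Genomics 3′ v2 chemistry and sequenced on a HiSeq3000, per the labels. The files deposited by the authors hold raw UMI counts per gene and barcode, not normalized. They were made with Cell Ranger 2.2.0 on mm10, per the submitters' processing notes. The sources used here give neither the annotation nor the rule by which barcodes were called cells. The number of counts per cell, given in the report, limits every value.

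Barcodes under 500 genes or over 20% mitochondrial UMIs were dropped, 2 in DKO_Skp2het and 1 in DKO. Doublets were scored against 2 simulated doublets per cell, and 0.8% per 1000 barcodes were removed, 216 in DKO_Skp2het and 105 in DKO. Counts were scaled to 10000 per cell, and 2000 variable genes, without the members and the cell cycle genes, gave 30 principal components, 15 neighbours and Leiden clusters at resolution 1.0. A cluster was named where a type's markers averaged at least 1.0 higher on the log2 scale than in other cells, at least 3 of them were 2-fold higher or more, and no other type had more markers among the cluster's top 10 genes. Levels are summed UMIs per library in CPM, and log2 differences used CPM plus 5. Shares of cells with a UMI were taken after thinning each cell to 1500 UMIs. A count of 0 was given a limit of 3 counts. Intervals (95%) are exact Poisson for levels, Clopper-Pearson for shares and conditional binomial for ratios, and cover counting error only.

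No test was made, since each genotype has 1 library. The members and lists were chosen with earlier results of these data known, and the p53 targets were added after the data had been seen. The genes named are the members, the Max network and turnover genes with at least 100 UMIs, the 2 highest and 2 lowest of each target list, and the 5 genes most alike to Myc, Mycn, Mycl and Mxd3. The text says where others were chosen by their values. The value of 1 turnover gene is not reported here. Promoters came from RefSeq (GRCm38.p6) and gene positions from GENCODE M21. Settings varied were the filters, doublets, scaling, pseudocount, list minimum, thinning, dividing rule and clustering. The scripts, tested on simulated data, ran with seed 1 under leidenalg 0.10.2, igraph 0.11.9, sklearn 1.9.0, scipy 1.17.1, numpy 2.4.6, pandas 2.3.3 and matplotlib 3.10.9 in Python 3.11.15.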

Additional observations from a re-analysis of the deposited data

Results flagged for a closer look

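Among clusters with at least 30 cells per library, Mycn and Mycl each had 1 cluster whose interval lay on the other side of 1 from that over all kept cells. Mycn in cluster 13 stood at 723 CPM in DKO_Skp2het and 495 CPM in DKO, a ratio of 1.46 (1.30 to 1.65), against a ratio of 0.782 over all kept cells. Mycl in cluster 19, an amacrine-like cluster, stood at 68.0 CPM in DKO_Skp2het (43 cells, 17 UMIs) and 24.9 CPM in DKO (54 cells, 9 UMIs), a ratio of 2.73 (1.15 to 6.94), against 0.888 over all kept cells. Of the smaller clusters, horizontal-like cluster 26 held 27 Mycn UMIs in DKO_Skp2het (17 cells) and 7 in DKO (12 cells), a ratio of 2.55 (1.08 to 6.93). With 1 library per genotype, none of these differences was tested.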

How the results depend on the processing

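No paired analysis was possible because each genotype has 1 library. Of 167 values of the members recomputed under another setting, 132 stayed inside the 95% counting interval of the reported value, 34 moved outside it and 1 reversed. Of 96 class levels 89 stayed inside theirs, and all 28 list medians recomputed moved by less than 0.1 on the log2 scale. Values below are log2 differences of DKO_Skp2het to DKO where not said otherwise, and the cause of each move was not tested. With cells thinned to 1500 UMIs, the difference over all cells was -0.0422 for Mycl, 0.23 for Max and -0.40 for Mxd3. In dividing cells it was 0.37 for Myc and -0.18 for Mxd3, and in other cells -0.46 for Mycn and 0.33 for Max. Mycl in other cells was 0.0535, against -0.14 with all UMIs, a reversed direction. The share of the 3 genes' UMIs was then 45.4% for Mycn and 46.5% for Mycl in DKO_Skp2het, and 6.35% for Myc and 42.1% for Mycl in DKO, and the ratio of Mxd3 in dividing to other DKO_Skp2het cells was 6.99. With cells of at least 3420 UMIs in both libraries, Mycl was at -0.28 and Mxd3 at -0.11 over all cells, and Mycl at -0.32 in other cells. The DKO_Skp2het shares were 9.35% for Myc, 50.0% for Mycn and 40.7% for Mycl. Mycn stood at 636 CPM in cluster 13 of DKO_Skp2het, and in immature neuron-like cells at 316 CPM in DKO_Skp2het and 330 CPM in DKO. With dividing cells defined by at least 2 core UMIs the ratio of Mxd3 was 11 in DKO_Skp2het and 10.7 in DKO, and by at least 5 it was 6.39 in DKO_Skp2het and 6.24 in DKO. Without cluster 13, an alternative chosen after seeing the data, Mycn was at -0.44 over all cells, and Myc at -0.17 and Mycn at -0.56 in dividing cells. The shares were then 3.90% for Myc, 45.9% for Mycn and 50.2% for Mycl in DKO_Skp2het, and 3.82%, 50.5% and 45.7% in DKO. Pooled within clusters and dividing states, also chosen after seeing the data, Myc was at 0.38, Mycn at -0.0773 and Mxd3 at -0.0345. At clustering resolution 0.5 Mycn in DKO Müller glia-like cells was 29.6 CPM, and at 1.5 Mycn in immature neuron-like cells was 312 CPM in DKO_Skp2het and 338 CPM in DKO. With doublets kept, Mycl in cluster 4 of DKO was 152 CPM. Depth limits Myc, whose levels outside clusters 13 and 20 lie near the limit of a count of 0 in microglia-like cells.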
